A study of Arabidopsis thaliana with 9 samples.

Results

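Among 33602 Arabidopsis loci counted in whole seedlings, 8 were set apart because their RNA level differed between 2 lines of seedlings that carry mutations in the same gene, EMB1579. They are AT2G01422, AT3G29633, AT5G05200, AT5G35935, QQS (AT3G30720), RLP18 (AT2G15040), CYP71B22 (AT3G26200) and CRK30 (AT4G11460). The counts of emb1579-1 and emb1579-3 themselves chose these loci, with no stated threshold, so the difference between the lines is given as a description and supports nothing. All 8 passed the expression filter that left 20668 loci for testing. AT2G01422 and AT3G29633 did so only through the libraries labelled emb1579-1, where they are high.

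The series set out to learn how EMB1579, also called RSA1, affects root growth genes. Its 3 genotypes were the wild type Col-0 and the lines emb1579-1 and emb1579-3, both in the Col-0 background. Seeds lay on half-strength MS medium for 3 days of stratification, and whole seedlings of every genotype were collected 6 days after the move to 20 °C, with no other treatment. The labels give no lesion for either allele and do not say how many plants made up a library. The names of the 3 columns used for emb1579-3 do not match its labels (the number in the prefix differs), and they were given to that line because no other columns remained.

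The 8 libraries used (2 of Col-0, 3 of each line) held 24.1 to 37.5 M counts, of which organelle genes took 45.8% to 49.6%. Col-0 replicate 3 held 1.18 M counts, correlated with the others at 0.343 or less, and had 0 to 4 counts at each of the 8 loci, so it was left out. EMB1579 (AT2G03150) was at 48.6 and 48.9 CPM (counts scaled to the library's total) in Col-0 and, in the libraries labelled emb1579-1, at 46.8, 48.9 and 47.7 CPM. In emb1579-3 it was at 2.11, 1.08 and 1.13 CPM. The targeted transcript thus separated emb1579-3 from Col-0 but did not separate the libraries labelled emb1579-1 from Col-0. Markers of both green tissue and roots were present: the 6 green tissue markers summed to 16817 to 22092 CPM and the 8 root markers to 33.4 to 59.4 CPM, while the 6 seed markers summed to at most 1.21 CPM. Col-0 replicate 2 also held counts at 4752 of the 6133 loci that were at 0 in all 6 mutant libraries, against 386 for Col-0 replicate 1, so single counts in Col-0 replicate 2 are weak evidence of RNA.

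As background, plants of the same accession can carry the same DNA sequence in differently methylated states, called epialleles, which pass through generations and set whether a gene is transcribed. QQS is a textbook case in Arabidopsis: an orphan gene, found in no other plant lineage, that lowers leaf starch and whose level varies between Col-0 stocks with the methylation upstream of it. AT5G05200 belongs to the ABC1-type atypical kinases, which in plants sit in plastids and mitochondria, many of them in the lipid droplets of chloroplasts. CYP71B22 is a cytochrome P450 of a family of mono-oxygenases with roles in defence metabolites, CRK30 is a receptor-like kinase with a cysteine-rich outer domain, and RLP18 is annotated as a transcribed pseudogene of the receptor-like proteins, which perceive signals at the cell surface. AT2G01422 is annotated as a non-coding RNA, AT5G35935 as a pseudogene and AT3G29633 as a gene of an uncharacterized protein. DNA methylation was not measured in these samples.

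The sequences that bear on the results form 2 pairs. The first pair is shown because a second locus, AT3G28899, overlaps a near copy of part of AT2G01422, which bears on which locus a read came from. Both stretches are on the plus strand of TAIR10.1 (RefSeq), at chr2:184115-184264 and chr3:10902191-10902340. The capitals mark the 10 bases at which the 150-base stretches differ.
AT2G01422: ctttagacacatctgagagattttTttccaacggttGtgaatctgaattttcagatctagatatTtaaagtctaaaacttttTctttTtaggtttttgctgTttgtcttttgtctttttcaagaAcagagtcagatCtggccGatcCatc
AT3G28899: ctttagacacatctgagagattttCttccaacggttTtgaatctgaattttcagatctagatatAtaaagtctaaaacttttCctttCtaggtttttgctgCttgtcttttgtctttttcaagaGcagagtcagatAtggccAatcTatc
The second pair is the DNA just before QQS (chr3:12348797-12349046, plus strand) and just before AT5G05200 (chr5:1547208-1547411, minus strand, up to the next gene), again from TAIR10.1. The capitals mark each CG, the dinucleotide at which plants keep methylation most stably and which reads the same on both strands.
QQS upstream: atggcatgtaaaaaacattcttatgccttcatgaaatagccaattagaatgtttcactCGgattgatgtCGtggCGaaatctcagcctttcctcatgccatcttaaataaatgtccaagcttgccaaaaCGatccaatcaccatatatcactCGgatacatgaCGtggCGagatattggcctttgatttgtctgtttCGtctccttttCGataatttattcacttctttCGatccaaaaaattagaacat
AT5G05200 upstream: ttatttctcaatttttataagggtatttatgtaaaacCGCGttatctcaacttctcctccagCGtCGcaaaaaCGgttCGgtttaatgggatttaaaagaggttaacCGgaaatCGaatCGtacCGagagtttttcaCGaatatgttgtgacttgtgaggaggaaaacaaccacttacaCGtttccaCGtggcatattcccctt
In the 250 bases before the start, QQS has 10 CG and AT5G05200 has 14, against a median of 5 over 27443 promoters of the same length. As many were found in 12.5% of promoters for QQS and in 3.41% for AT5G05200. The other 6 loci have 2 to 8. These counts describe the letters and say nothing of their methylation.

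The 8 loci followed different patterns across the genotypes. AT2G01422 and AT3G29633 were at or near 0 in Col-0 and emb1579-3 and present in the libraries labelled emb1579-1. AT5G05200 was high in Col-0 and emb1579-3 and low in the libraries labelled emb1579-1. QQS and AT5G35935 had the lines on opposite sides of Col-0, RLP18 was low in emb1579-3, and CYP71B22 and CRK30 were highest in the libraries labelled emb1579-1. The libraries of the lines did not overlap at any of the 8 loci. These were chosen for a difference between the same libraries, so this is no result about them. Between the lines 0.818% of all loci tested passed an adjusted p of 0.05 in edgeR's quasi-likelihood test (86 higher and 83 lower in emb1579-3). Of these 41 differed at least 2-fold. The 8 are among the 41, but they were chosen on these same counts, so this is no test of them. In bulk RNA, fewer cells that express a gene and less RNA per cell cannot be told apart.

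**Figure D1:**
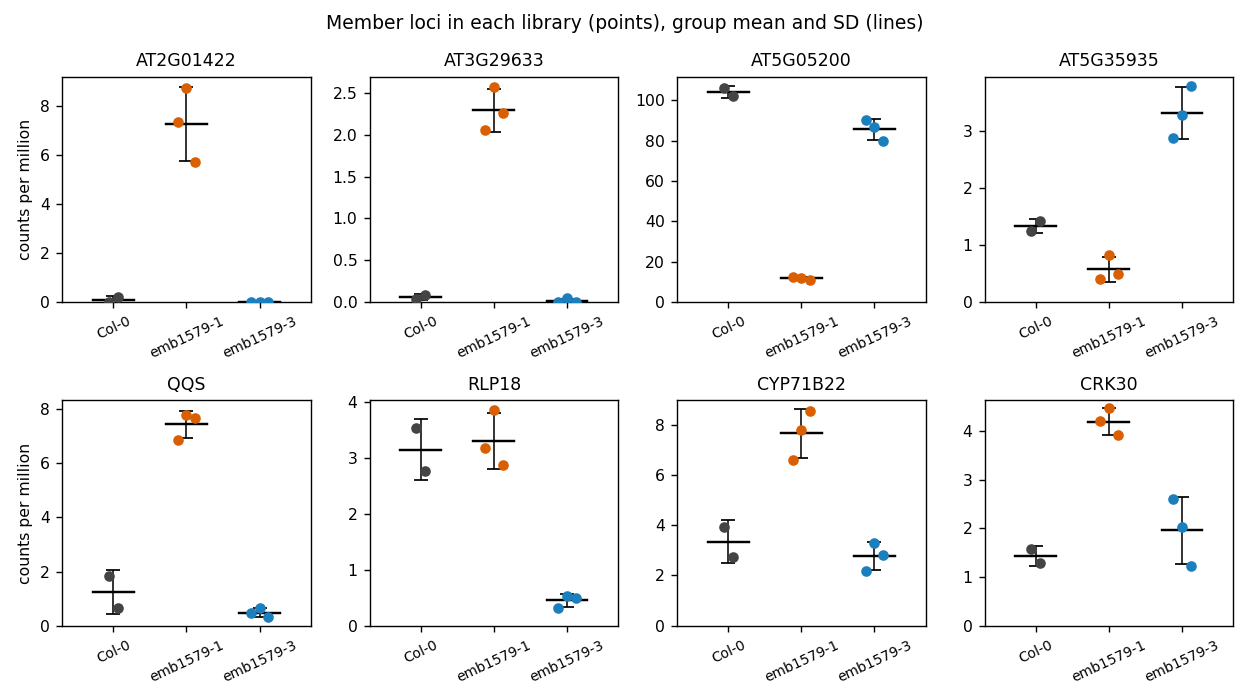
Level of each of the 8 loci in CPM (counts scaled to the library's total, vertical axis, starting at 0, scaled per locus) in 2 Col-0, 3 emb1579-1 and 3 emb1579-3 libraries; points are libraries, bars are the mean and SD. AT2G01422 is at 5.73 to 8.71 CPM in the libraries labelled emb1579-1 and at 0 in all 3 of emb1579-3, and AT5G05200 is at 11.0 to 12.2 CPM in the former and at 79.7 to 90.4 CPM in the latter.

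AT2G01422 spans chr2:183940-184734 on the plus strand and overlaps no annotated gene. It had 182, 244 and 139 counts in the libraries labelled emb1579-1 (7.34, 8.71 and 5.73 CPM). It had 0 counts in each emb1579-3 library and 0 and 7 counts in the Col-0 libraries, the 7 being in Col-0 replicate 2. The mean in the libraries labelled emb1579-1 was 7.26 ± 1.49 CPM (SD, n = 3). Against emb1579-3 this was at least 202-fold higher, taking a floor of 3 counts over that group, which equals 0.0363 CPM. Against Col-0 the ratio was 71.6 (95% interval 34.5 to 179, exact binomial on the summed counts, counting error only).

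AT3G29633 lies at chr3:11452509-11453528 on the minus strand and had the same profile at a lower level. The libraries labelled emb1579-1 held 51, 72 and 55 counts (2.06, 2.57 and 2.27 CPM), which made a mean of 2.30 ± 0.258 CPM (SD, n = 3). The emb1579-3 libraries held 0, 1 and 0 counts and the Col-0 libraries 1 and 3. The ratio was 191 against emb1579-3 (95% interval 33.8 to 7577) and 39.5 against Col-0 (15.1 to 146), again for counting error only. Intervals at both loci leave out the spread between libraries. The mutant counts in them chose the loci, so they test nothing. At both loci Col-0 and emb1579-3 overlapped, and neither passed 0.188 CPM in any library.

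A locus that overlaps a near copy of AT2G01422 was highest in the same libraries. The best match of AT2G01422 elsewhere in the genome was 461 bases at 89.8% identity (chr3:10902040-10902500). It begins before the start of AT3G28899 (chr3:10902184-10902515) and covers most of that locus, and it was looked up after the values of AT2G01422 were seen. AT3G28899, a gene of an uncharacterized protein that overlaps AT3G28900, had 14, 12 and 13 counts in the libraries labelled emb1579-1, against 1, 2 and 0 counts in emb1579-3 and 3 and 3 counts in Col-0. Its groups in the lines did not overlap. The summed counts gave a ratio of 13.9 (95% interval 4.43 to 70.5) against emb1579-3 and 5.77 (2.42 to 16.7) against Col-0. AT3G28899 passed the expression filter only through the libraries labelled emb1579-1, where it is high. Its difference between the lines is therefore a description with no test. The sources used here do not say how reads that match both loci were counted, so these 39 counts may or may not be separate from the 565 of AT2G01422. AT3G28900, the overlapping gene, had 705 to 901 counts with the label emb1579-1 and 819 to 1148 counts in emb1579-3, which overlap. The best match of AT3G29633 elsewhere had 84.1% identity over 750 bases.

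AT5G05200, the ABC1-type kinase gene at chr5:1544007-1547207 on the minus strand, was by far the most abundant of the 8. Col-0 was at 106 and 102 CPM, the libraries labelled emb1579-1 at 12.2, 11.8 and 11.0 CPM, and emb1579-3 at 90.4, 86.6 and 79.7 CPM. No groups overlapped, and emb1579-3 lay a little below Col-0. Means were 104 ± 2.78 CPM in Col-0 (SD, n = 2), 11.7 ± 0.644 CPM in the libraries labelled emb1579-1 (n = 3) and 85.6 ± 5.41 CPM in emb1579-3 (n = 3). Set against Col-0 the log2 fold change was -3.16 (SE 0.09), an 8.93-fold lower level, for the libraries labelled emb1579-1 and -0.28 (SE 0.08) for emb1579-3. Per kilobase of exon it was at 53.5 CPM in Col-0 and 5.99 CPM in the libraries labelled emb1579-1. Its mean over the genotypes per kilobase stood at percentile 93.1 of the loci tested, and those of the other 7 at 3.45 to 49.2. Its end overlaps that of AT5G05190, which averaged 5.80 CPM in Col-0, 5.28 CPM with the label emb1579-1 and 6.39 CPM in emb1579-3.

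The gene that faces AT5G05200 across the 204 bases printed above did not follow it. AT5G05210, a homolog of Surfeit locus protein 6, which in yeast and animals acts in ribosome assembly, averaged 14.3 CPM in Col-0, 18.9 CPM with the label emb1579-1 and 19.3 CPM in emb1579-3. Its log2 fold change between the lines was 0.03 (edgeR adjusted p = 0.958), while that of AT5G05200 was 2.87 (SE 0.08). Among the 15 other genes of the ABC1 kinase family, all tested, edgeR called 0 between the lines and DESeq2 called 1. At an unadjusted p under 0.05 were 2 (13.3%, beside 9.32% of all loci). Against Col-0 in the mean of both lines, 1 rose and 5 fell (40.0% of the 15, beside 23.2% of all loci): ABC1K8 rose by 0.52 (SE 0.07, adjusted p = 6.41e-05), and ABC1K1 fell by 0.33 (SE 0.08, adjusted p = 0.009) on the log2 scale.

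QQS, at chr3:12349047-12349933 on the plus strand, was at 6.86, 7.78 and 7.66 CPM in the libraries labelled emb1579-1 and at 0.457, 0.665 and 0.332 CPM in emb1579-3. The Col-0 libraries were at 1.83 and 0.671 CPM, so Col-0 lay between the lines but its lower library was level with the highest of emb1579-3. The 57 and 25 counts of Col-0 made a mean of 1.25 ± 0.82 CPM (SD, n = 2), the largest SD in CPM of any group at this locus. Against Col-0 the log2 fold change was 2.60 (SE 0.29) for the libraries labelled emb1579-1 and -1.35 (SE 0.40) for emb1579-3, and without Col-0 replicate 1 the latter was -0.49. Between the lines QQS was 15.6-fold lower in emb1579-3.

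Genes of starch metabolism and the reported partners of QQS were set beside it. QQS protein is known to bind NF-YC4, and QQS is known to lower starch. Of 17 such genes tested, 1 was called between the lines: GBSS1, the granule-bound starch synthase, was at 24.4 ± 1.25 CPM in the libraries labelled emb1579-1 and at 32.1 ± 1.72 CPM in emb1579-3 (SD, n = 3 each), a log2 difference of 0.39 (SE 0.08, edgeR adjusted p = 0.0285). That is 5.88% of the list beside 0.818% of all loci. Against Col-0 in the mean of both lines, 1 of the 17 rose and 5 fell (35.3%, beside 23.2% of all loci). GBSS1 rose by 2.06 (SE 0.10, adjusted p = 1.56e-10), while SEX1, the glucan water dikinase of starch breakdown, fell by 0.45 (SE 0.09, adjusted p = 0.00107) and SS4, a starch synthase that starts granules, fell by 0.45 (SE 0.07, adjusted p = 0.000236).

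AT5G35935 is a 6504-base pseudogene at chr5:14083388-14089891 on the minus strand, and its order was the reverse of that of QQS. It was at 2.88, 3.28 and 3.79 CPM in emb1579-3, at 1.25 and 1.42 CPM in Col-0, and at 0.403, 0.821 and 0.494 CPM in the libraries labelled emb1579-1. No neighbours in this order overlapped. The log2 fold change was -1.20 (SE 0.30) for the libraries labelled emb1579-1 against Col-0 and 1.30 (SE 0.25) for emb1579-3. Per kilobase of exon it was at 0.51 CPM in emb1579-3 and 0.0881 CPM in the libraries labelled emb1579-1. A stretch of 109 bases, 1.68% of the locus, has a match of at least 90% identity elsewhere.

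RLP18, at chr2:6507402-6509319 on the plus strand, was the locus at which emb1579-3 stood alone. Col-0 was at 3.53 and 2.77 CPM and the libraries labelled emb1579-1 at 3.19, 3.85 and 2.88 CPM, which overlap. The emb1579-3 libraries were at 0.316, 0.54 and 0.498 CPM. Set against Col-0 the log2 fold change was 0.08 (SE 0.21) for the libraries labelled emb1579-1 and -2.79 (SE 0.27), a 6.94-fold lower level, for emb1579-3. The long non-coding RNA AT2G06355 overlaps RLP18, so without a known strand setting reads of the pair cannot be told apart. A repeat that makes up 453 bases of RLP18 (23.6%) matches 41 places elsewhere at 90% identity or more. Among 44 other RLP genes tested, edgeR called 0 between the lines. At an unadjusted p under 0.05 were 4 (9.09%, near the 9.32% of all loci). DESeq2 called 0 but gave no adjusted p for 10 of them. In the mean of both lines 7 rose and 4 fell (25% of the 44, near the 23.2% of all loci). RLP35 rose by 1.47 (SE 0.16, adjusted p = 2e-06) and RLP9 fell by 1.21 (SE 0.19, adjusted p = 0.000169) on the log2 scale.

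CYP71B22 (chr3:9589249-9591179, plus strand) and CRK30 (chr4:6963521-6967200, plus strand) showed the smallest differences of the 8. CYP71B22 was at 6.61, 7.82 and 8.57 CPM in the libraries labelled emb1579-1, at 2.18, 3.28 and 2.82 CPM in emb1579-3 and at 3.95 and 2.74 CPM in Col-0. CRK30 was at 4.19, 4.46 and 3.91 CPM in the libraries labelled emb1579-1, at 2.60, 2.04 and 1.23 CPM in emb1579-3 and at 1.57 and 1.29 CPM in Col-0. At both loci the libraries labelled emb1579-1 stood above all others, while Col-0 and emb1579-3 overlapped. The log2 fold change of the libraries labelled emb1579-1 against Col-0 was 1.21 (SE 0.19) for CYP71B22 and 1.56 (SE 0.25) for CRK30. For emb1579-3 against Col-0 it was -0.27 (SE 0.20) for CYP71B22 and 0.45 (SE 0.26) for CRK30.

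The relatives of both genes were tested in the same way. Of 21 other CYP71B genes tested, 1 was called: CYP71B12 was at 11.3 ± 0.183 CPM in Col-0 (n = 2), 3.54 ± 0.29 CPM in the libraries labelled emb1579-1 (n = 3) and 7.18 ± 0.0429 CPM in emb1579-3 (n = 3), a log2 difference between the lines of 1.02 (SE 0.12, edgeR adjusted p = 0.000113), opposite in sign to CYP71B22. In the mean of both lines 2 of the 21 rose and 6 fell (38.1%, beside 23.2% of all loci), CYP71B37 by 1.04 (SE 0.13, adjusted p = 1.22e-05). Of 28 other CRK genes tested, 1 was called between the lines: CRK11 was at 9.43 ± 0.56 CPM in the libraries labelled emb1579-1 and at 5.84 ± 1.03 CPM in emb1579-3 (SD, n = 3 each), a log2 difference of -0.69 (SE 0.13, edgeR adjusted p = 0.0152) in the direction of CRK30. In the mean of both lines 6 CRK genes rose and 5 fell (39.3% of the 28, beside 23.2% of all loci). CRK28 rose by 0.84 (SE 0.13, adjusted p = 0.000103) and CRK25 fell by 1.39 (SE 0.14, adjusted p = 1e-06). The single calls are 4.76% of the CYP71B genes and 3.57% of the CRK genes, beside 0.818% of all loci.

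The mean of both lines against Col-0 is built from the same mutant counts that chose the loci, so its values at the 8 loci are a description with no test. The log2 fold change was -1.72 (SE 0.07) at AT5G05200, to which the libraries labelled emb1579-1 gave the larger part, and -1.36 (SE 0.20) at RLP18, where emb1579-3 alone departed from Col-0. It was 1.00 (SE 0.23) at CRK30, mostly from the libraries labelled emb1579-1, and 0.85 there without Col-0 replicate 2. QQS stood at 0.62 (SE 0.31), and at 1.49 without Col-0 replicate 1. CYP71B22 stood at 0.47 (SE 0.17), and at 0.76 without Col-0 replicate 1, while AT5G35935 stood at 0.05 (SE 0.25). At AT2G01422 and AT3G29633 the fitted mean depends on groups at or near 0 and is not used.

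**Figure D2:**
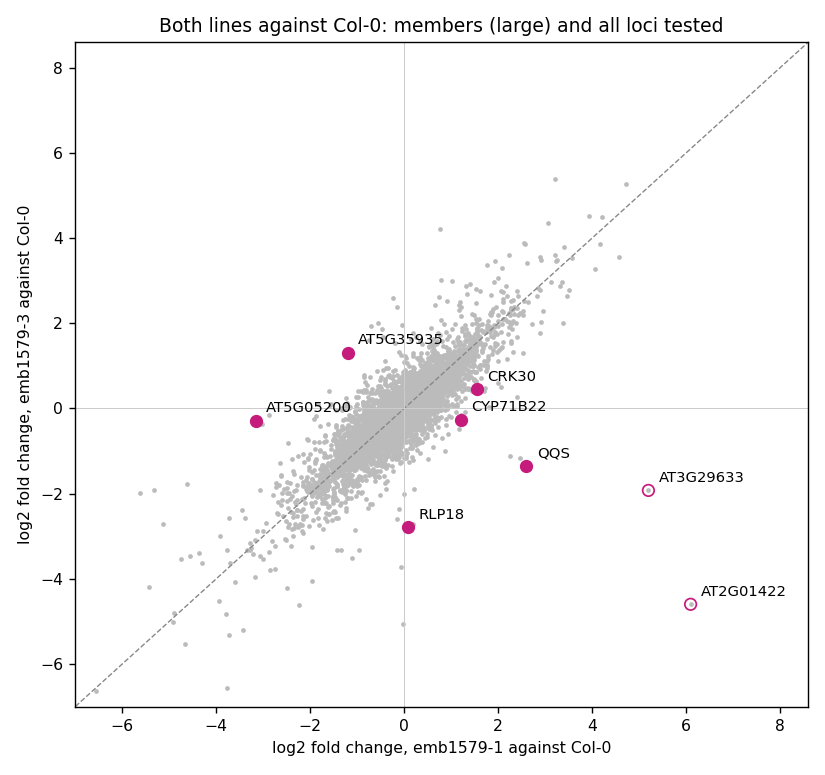
Log2 fold change against Col-0 of emb1579-1 (horizontal axis) and emb1579-3 (vertical axis) for all loci tested (grey) and the 8 loci (large, named); both axes share the Col-0 libraries, the dashed line marks equal values, and 3 other loci lie outside the range drawn. Open circles mark AT2G01422 and AT3G29633, whose fitted values depend on counts near 0; QQS and AT5G35935 lie in the quadrants of opposite sign, and RLP18 lies at 0.08 on the horizontal axis and at -2.79 on the vertical one.

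Position set 4 of the loci apart. AT3G29633, AT5G35935, QQS and RLP18 had 17, 23, 5 and 18 other protein-coding loci within 100 kb on either side, against a median of 54 for the loci tested, and at most 2.13% of the loci tested had as few. They had 27, 21, 39 and 25 annotated pseudogenes there against a median of 2. AT2G01422, AT5G05200, CYP71B22 and CRK30 had 54, 68, 65 and 49 protein-coding loci and 2, 1, 5 and 4 pseudogenes. Of the 8 loci 5 are annotated as protein-coding, as are 97.5% of the loci tested, and 2 as pseudogenes, as are 1.49%. The 8 loci lie on chromosomes 2, 3, 4 and 5, and AT2G01422 and RLP18 are 0.768 and 5.56 megabases from EMB1579 on chromosome 2. No test was made of these counts.

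**Figure D3:**
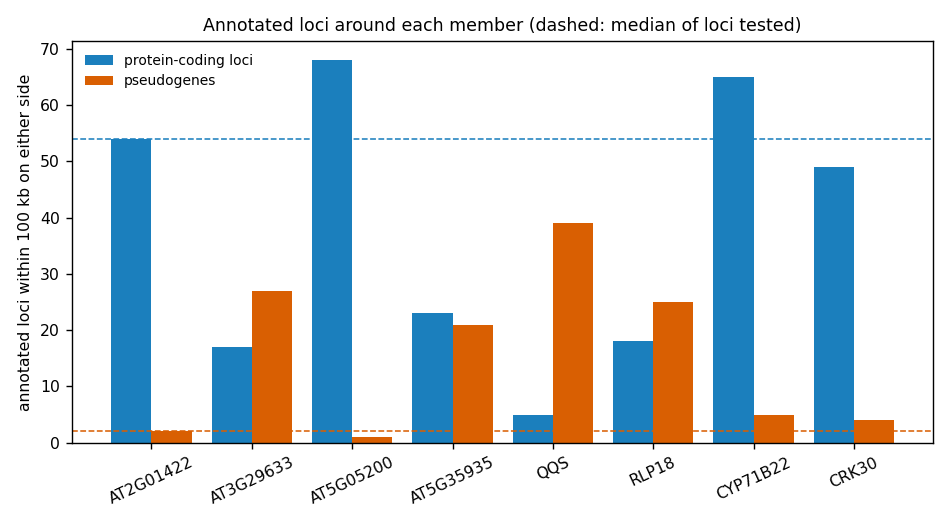
Number of annotated protein-coding loci and pseudogenes within 100 kb on either side of each of the 8 loci (vertical axis, starting at 0); dashed lines are the medians of the loci tested, 54 and 2. QQS has the fewest protein-coding loci, 5, and the most pseudogenes, 39.

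The genes next to the 8 loci were not chosen by their values and were tested between the lines. Of the 80 neighbours, 5 tested genes on either side of each locus, 5 passed (6.25%, beside 0.818% of all loci), 3 higher and 2 lower in emb1579-3. Of the 16 immediate neighbours 3 passed. Widening to 10 genes on either side added none, which left 5 of 160. AT2G01422, QQS, CYP71B22 and CRK30 were the loci with no neighbour called by edgeR, a grouping made from that result, so it says nothing further. Of their 40 neighbours 3 were at an unadjusted p under 0.05, where 9.32% of all loci were, and DESeq2 called 1. Against Col-0 the share of neighbours called was 26.25% for the libraries labelled emb1579-1 (17.8% of all loci) and 33.75% for emb1579-3 (20.3% of all loci).

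The neighbour of RLP18 was also lowest in emb1579-3. AT2G15042, a gene of a leucine-rich repeat protein that starts 1521 bases beyond RLP18 on the same strand, was at 9.96 and 7.49 CPM in Col-0, at 4.80, 5.21 and 3.34 CPM in the libraries labelled emb1579-1 and at 0.773, 1.25 and 0.631 CPM in emb1579-3. No groups overlapped. Between the lines its log2 difference was -2.36 (SE 0.25, edgeR adjusted p = 9.92e-05). In the libraries labelled emb1579-1 it fell by 0.96 (SE 0.20, adjusted p = 0.00341) against Col-0, where RLP18 stood at 0.08 (SE 0.21). RLP19, a further receptor-like protein gene 23941 bases away, was at -0.15 between the lines (adjusted p = 0.725).

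Between the lines, the called neighbours nearest to AT5G35935 and AT3G29633 differed in the opposite direction from the locus itself. AT5G35940, a gene of the mannose-binding lectins, starts 682 bases from AT5G35935 on the opposite strand. It was at 2.83 and 3.70 CPM in Col-0, at 1.49, 2.07 and 2.22 CPM in the libraries labelled emb1579-1 and at 0.668, 0.54 and 0.698 CPM in emb1579-3, a log2 difference between the lines of -1.59 (SE 0.26, edgeR adjusted p = 0.00327). Against Col-0 its log2 fold change was -0.76 (SE 0.23) in the libraries labelled emb1579-1, the same direction as AT5G35935. In emb1579-3 it was -2.35 (SE 0.26), the opposite direction. AT3G29630, a UDP-glycosyltransferase gene 3833 bases from AT3G29633, was at 3.21 and 3.03 CPM in Col-0, at 1.13, 0.464 and 0.70 CPM in the libraries labelled emb1579-1 and at 2.25, 1.58 and 1.76 CPM in emb1579-3. Against Col-0 its log2 fold change was -2.04 (SE 0.28) with the label emb1579-1 and -0.74 (SE 0.25) in emb1579-3. Its log2 difference between the lines was 1.30 (SE 0.28, edgeR adjusted p = 0.0318). The call was lost without emb1579-1 replicate 2 or 3 (adjusted p = 0.202 and 0.151) and without emb1579-3 replicate 1 or 3 (adjusted p = 0.149 and 0.093).

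The remaining calls were genes of flavonoid metabolism at a distance. AT5MAT, the malonyltransferase that decorates anthocyanins, lies 52176 bases from AT3G29633 and was at 1.76 ± 0.352 CPM in the libraries labelled emb1579-1 and 5.94 ± 1.13 CPM in emb1579-3 (SD, n = 3 each), a log2 difference of 1.76 (SE 0.24, edgeR adjusted p = 0.00186). CHIL, a chalcone isomerase-like protein that promotes flavonoid synthesis, lies 16078 bases from AT5G05200 and was at 16.1 ± 0.552 and 23.3 ± 2.33 CPM in the same order, a log2 difference of 0.54 (SE 0.09, adjusted p = 0.00632). Without emb1579-3 replicate 1 the adjusted p of CHIL was 0.0506.

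CYP71B22 sits in a row of its relatives, 7 of its 10 neighbours being CYP71B genes. CYP71B23, 1547 bases away, was at -0.51 between the lines (edgeR adjusted p = 0.116), and CYP71B20 was at 0.04 (adjusted p = 0.933). Its closest copy in sequence, CYP71B21 (84.7% identity over 1639 bases), held 0 counts in all 6 mutant libraries. CRK30 is likewise followed by CRK32 and CRK34, which stood at -0.83 and -0.44 between the lines and did not pass (adjusted p = 0.80 and 0.387). PIN4, the auxin efflux carrier gene 175 bases before AT2G01422, was at -0.02 (adjusted p = 0.967).

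**Figure D4:**
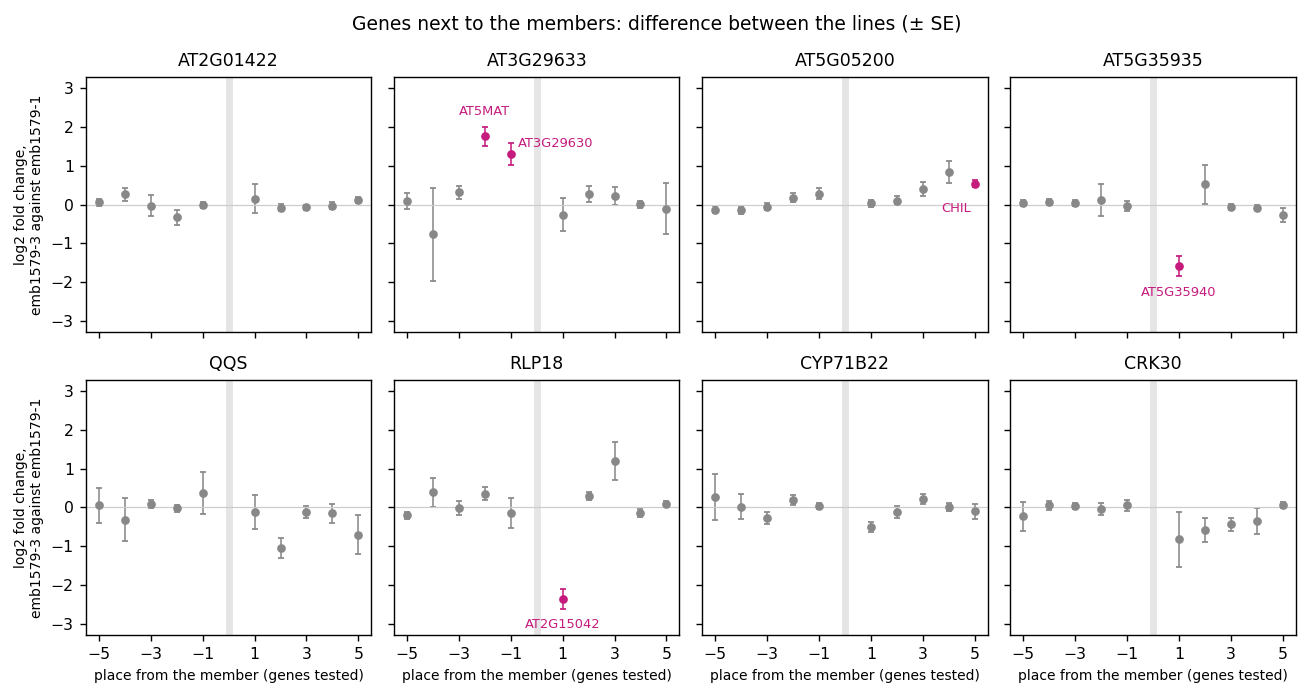
Log2 fold change of emb1579-3 against emb1579-1, with its SE, for the 5 tested genes on either side of each of the 8 loci (horizontal axis: place from the locus, the grey bar); coloured points passed an adjusted p of 0.05. AT2G15042 beside RLP18 is at -2.36, AT5G35940 beside AT5G35935 at -1.59, and most other neighbours lie near 0.

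Genes of DNA methylation and silencing were set beside the loci. Of 40 tested, edgeR and DESeq2 called 0 between the lines, with a median log2 difference of 0.04 and a range of -0.44 to 0.39. At an unadjusted p under 0.05 were 3 (7.5%, beside 9.32% of all loci). Against Col-0 in the mean of both lines 14 rose and 1 fell (37.5%, beside 23.2% of all loci), with a median of 0.19 where that of all loci was near 0. NRPD1, the largest subunit of RNA polymerase IV, rose by 0.70 (SE 0.12, adjusted p = 0.0004) and averaged 6.00 CPM in Col-0, 9.99 CPM with the label emb1579-1 and 9.49 CPM in emb1579-3. DDM1, the remodeller that keeps transposons silent, rose by 0.51 (SE 0.11, adjusted p = 0.00247), as did DRD1 by 0.52 (SE 0.12, adjusted p = 0.00375) and IDN2 by 0.47 (SE 0.09, adjusted p = 0.00107), both of RNA-directed DNA methylation.

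Other loci known for epialleles or imprinting were mostly too scarce to test. Of 10 listed, 4 passed the expression filter and edgeR called 0 between the lines (1 at an unadjusted p under 0.05, where 9.32% of all loci were). DESeq2 called 0 but gave no adjusted p for 2 of them. Against Col-0 in the mean of both lines 1 of the 4 rose and 1 fell (50%, beside 23.2% of all loci). PAI2, a tryptophan synthesis gene, rose by 0.69 (SE 0.20, adjusted p = 0.0206), and MEA, an imprinted Polycomb gene, fell by 2.31 (SE 0.67, adjusted p = 0.0169) from 8 and 24 counts in Col-0. The 24 are from Col-0 replicate 2, which also held counts at 4752 of the 6133 loci at 0 in all mutant libraries. The fall of MEA is therefore weak evidence. SDC and BNS stood at -0.15 and 0.12 (adjusted p = 0.852 and 0.727).

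The loci whose profile over the 8 libraries was most like that of each locus were taken by Pearson's r of log2(CPM + 0.5) among 18152 to 18153 loci with a mean of at least 1 CPM. These r values describe 8 libraries in 3 genotypes, which fixes much of their size. The mutant libraries among them chose the 8 loci, so likeness of 1 of these to another is no result. AT3G29633 was most like AT2G01422 (r = 0.997), and QQS and CYP71B22 were among each other's nearest 2 (r = 0.976). Next came AT2G24600, of the ankyrin repeat proteins, for AT3G29633 (r = 0.962) and AT5G14730 for QQS (r = 0.978) and CYP71B22 (r = 0.956). Among the loci compared AT2G01422 was most like PLDP1 and PP5.2 (r = 0.954 and 0.951), since AT3G29633 falls under the limit of 1 CPM. AT5G05200 was most like AT3G14750 and LSF2 (r = 0.981 and 0.980), and AT5G35935 like NAD-ME2 and AT1G52620 (r = 0.965 and 0.958). RLP18 was most like AT1G52190 and AT5G10050 (r = 0.986 and 0.982), and CRK30 like FLS2, the flagellin receptor, and AT5G42960 (r = 0.978 and 0.977). These r values compare the shape of profiles and not the size of changes. PLDP1 averaged 31.0 CPM in Col-0, 33.2 CPM with the label emb1579-1 and 30.9 CPM in emb1579-3. For the named loci outside the 8, log2 differences between the lines ran from -0.55 (FLS2) to 0.56 (NAD-ME2).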

How the data were processed

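The authors deposited raw counts per locus for 9 libraries, per the values of the table. Per the submitters' processing notes FastQC, HISAT2, Cufflinks, Cuffdiff and the build TAIR10 were used. The sources used here do not give which tool counted the reads, with which strand setting, or what became of shared reads. The deposited counts of 8 libraries were fitted with edgeR 4.0.16 under R 4.3.3 (TMM, default filter, robust quasi-likelihood F-test, 1 coefficient per genotype, common coefficient of variation 0.0904, 5 residual degrees of freedom), with Benjamini-Hochberg adjustment over the 20668 loci tested and a threshold of 0.05. DESeq2 1.42.0 was an alternative. CPM used TMM-scaled totals. The SE follows from the fold change and F. The fit was tested on simulated data. The mean of both lines against Col-0 was planned as a test on the 8 loci, but it shares the mutant counts that chose them and is given there as a description. Names, positions and sequences came from RefSeq's TAIR10.1 annotation (32835 loci matched, 767 not), and copies from blastn 2.17.0, counted from 90% identity over 100 bases. The table holds no coordinates.

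The loci and the lists were chosen with earlier results of these data known. Named were the 8 loci, EMB1579, every neighbour called between the lines, up to 4 genes per list by adjusted p, and the 2 most alike loci each. AT5G05190, AT5G05210, AT3G28900, RLP19, PIN4, CYP71B20, CYP71B21, CRK32, CRK34 and AT3G28899 were named after their values were seen. Replicates are called biological in the series' design text. No libraries of a group were duplicates (chi-square per locus at least 5.68).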

Additional observations from a re-analysis of the deposited data

Results flagged for a closer look

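Neighbours of the 8 loci that differed between the lines by edgeR's test were AT2G15042 (log2 difference -2.36, emb1579-3 against emb1579-1), AT5MAT (1.76), AT3G29630 (1.30), CHIL (0.54) and AT5G35940 (-1.59). In the lists, GBSS1 (0.39), CYP71B12 (1.02) and CRK11 (-0.69) differed between the lines. AT3G28899, which overlaps the closest copy of AT2G01422, stood at -3.65, fitted on groups of 3 to 39 counts and given as a description with no test. At AT5G35935 and QQS every library of one line lay above Col-0 and every library of the other below it. At QQS this rests on 0.671 CPM in the lower Col-0 library against 0.665 CPM in the highest of emb1579-3, which are level. The log2 differences between the lines were 2.51 at AT5G35935 and -3.96 at QQS, and since these loci were chosen for that difference it was not tested.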

How the results depend on the processing

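The differences between the lines at the 8 loci kept their sign in the 15 settings compared for them, which leave out the fit with all 9 libraries. The loci were chosen for this difference, so the kept sign is no check of it. The fitted log2 values ran from 2.83 to 2.92 at AT5G05200, 2.31 to 2.88 at AT5G35935, -4.23 to -3.74 at QQS, -3.01 to -2.67 at RLP18, -1.61 to -1.34 at CYP71B22 and -1.39 to -0.85 at CRK30. With all 9 libraries the counts of loci past the threshold were 96 for emb1579-1 against Col-0, 134 for emb1579-3 against Col-0, 286 for the mean of both lines against Col-0 and 0 between the lines (main 3682, 4193, 4789 and 169), the neighbours called numbered 0 in place of 5, and AT5G05200 in emb1579-3 against Col-0 went to 0.23 (adjusted p = 0.948). Between the lines DESeq2 called 269 loci and the fit with no filter 569, and no filter gave 9 neighbours. With 1 library left out, the counts ran from 2552 to 4325 (emb1579-1 against Col-0), 2930 to 5075 (emb1579-3 against Col-0), 3288 to 5695 (mean of both lines), 62 to 350 (between the lines) and 3 to 8 (neighbours). The count between the lines was 350 without emb1579-1 replicate 1, 62 without its replicate 2, 66 without its replicate 3, 83 without emb1579-3 replicate 3 and 266 without Col-0 replicate 1. The neighbours numbered 8 without emb1579-1 replicate 1 and 3 without emb1579-3 replicate 1. Without Col-0 replicate 1 the share of higher calls for emb1579-1 against Col-0 was 27.9% in place of 46.4%. The cause of these moves was not tested.

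Same-numbered libraries of different genotypes deviated with correlations of -0.11 to 0.14, and differently numbered ones with -0.18 to 0.11. Between emb1579-1 and emb1579-3 the values were 0.02 to 0.14 for same numbers and -0.18 to 0.03 for different ones. These weak correlations do not settle whether the numbers pair the samples, and the main fit used no pairing. With the replicate number as a block 250 loci were called between the lines, 3572 and 3831 for the lines against Col-0, 4401 for their mean and 6 neighbours. With 2 Col-0 libraries and 0 to 7 counts, the depth does not tell AT2G01422 and AT3G29633 in Col-0 from emb1579-3.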

Other observations

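HISN6B, a histidine synthesis gene with a nearly identical paralogue in Arabidopsis, HISN6A, was on the list of epiallele loci but too scarce to test. It held 61 counts in emb1579-3 replicate 3 and 0 to 5 counts in each of the other 8 libraries, Col-0 replicate 3 included. In the same library HISN6A was at 5.78 CPM, while it was at 8.28 to 10.6 CPM in the other 7 libraries used. Both values come from 1 library, HISN6A was looked up after the HISN6B counts were seen, and the sources used here do not say how reads shared by such a pair were counted.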
